A study of Ovis aries with 36 samples.

Results

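In the 3 sheep of the CONTROL arm, which received no drug, gene expression of the infraspinatus 16 weeks after release of its tendon (TR) was compared with that before release (PRE). The infraspinatus belongs to the rotator cuff and turns the arm outward. The comparison was defined by the sample titles and rests on 6 of the 36 libraries of the series, a TR and a PRE library from each of the animals 2901, 2902 and 2903. The animals were female Swiss Alpine sheep aged 2 years at the start, with a weight of 45.3 ± 1.9 kg given for the arm, and each biopsy came from the muscle that was operated. Per the design text, each arm held 6 animals, of which 3 are analysed here. The remaining libraries come from the same sheep 6 weeks after the tendon had been reattached (END) and from their other shoulder on that occasion (END-CC), and from the arms N22W and N6W, 3 sheep each. N22W sheep received 150 mg of nandrolone decanoate, an ester of an anabolic steroid, each week from release onward. N6W sheep received the same weekly dose from repair onward, so that they too were without drug at TR. No library of the other shoulder at TR was analysed here, so that release and the 16 weeks that passed cannot be told apart.

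A skeletal muscle whose tendon is cut loses the tension under which its fibres work. In the rotator cuff such a muscle is known to retract and shrink, and fat and connective tissue are known to build up between its fibres. A few contractile and metabolic transcripts make up most of the messenger RNA of muscle fibres, whereas connective tissue, vessels, nerves and immune cells contribute many transcripts at low levels. Total RNA of a biopsy averages over all of these, and fewer cells of a type cannot be told apart from less RNA per cell.

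Genes are given as Ensembl identifiers of the sheep, 25197 in all, and a name could be assigned to 0 of them, so the identity of the tissue could not be checked with marker genes and the genes are described by their level and their change. Values are reads divided by 1 size factor per library, called normalized reads here, since the deposited values are whole multiples of 1 step per library. The reads recovered from these steps summed to between 28455547 and 35225557 in the TR libraries and between 27052247 and 36162390 in the PRE libraries. The labels give the arm, time point and animal of each biopsy, and a minimum RNA integrity number of 7.0 for the series. Within a group, nothing in them but the animal tells the biopsies apart. The limma p-values rest on a spread per gene taken over all 36 libraries, not on that between the 6 compared alone. These 6 libraries and the 6 of N22W at PRE and TR were scaled as 1 set, apart from the other 24 libraries. A group of 499 genes lay over 8-fold higher in each of the 12 libraries than in each of the other 24, on a scale with a pseudocount of 1, and held 9.51 to 12.8% of the reads in TR and 9.08 to 10.5% in PRE libraries of CONTROL. Of these genes, 237 were among those tested.

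Expression differed between TR and PRE in many genes, and the called rises were larger in fold than the called falls. Of the 16417 genes tested, 691 were higher at TR than at PRE (4.21%) and 1152 were lower (7.02%), together 1843 genes or 11.2%, in limma with the animal as a block at an adjusted p of at most 0.05. The 691 genes had a median log2 fold change of 1.22, with quartiles of 0.78 and 1.93. The 1152 genes had a median log2 fold change of −0.56, with quartiles of −0.72 and −0.46. Over all genes tested the median log2 fold change was −0.06, the 5th percentile was −0.70 and the 95th 1.12, which means that the distribution reached further upward than downward. Which direction held more calls depended on the method: with edgeR 1045 genes were higher and 757 lower, with DESeq2 1172 and 1006, with TMM scaling 772 and 579, with scaling to total reads 1498 and 132, and without animal 2902 115 and 60. A change of at least 2-fold, whether called or not, was seen upward in 1031 genes and downward in 291.

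The number of calls depended on the pairing and on each of the 3 sheep. Without the animal term 732 genes were called, 323 higher and 409 lower. Leaving out animal 2901, 2902 or 2903 left 420, 175 and 670 calls. In the fit without 2902 the genes that were higher outnumbered those that were lower, 115 against 60, which none of the other 2 fits with an animal left out showed.

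How many genes fell depended on the scaling, and how many rose did so less. The summed normalized reads came to 29179784, 27337530 and 25775795 in the TR libraries of 2901, 2902 and 2903, against 33517647, 36318883 and 33199666 in their PRE libraries. Scaling each library to its total reads in place of the authors' size factors therefore raised the median log2 fold change of all genes by 0.31, and 1498 genes were then called higher and 132 lower, so that 91.9% of calls were upward in place of 37.5%. TMM scaling, a trimmed mean of the ratios between libraries, moved the median by 0.06 and called 772 genes higher and 579 lower, 57.1% of calls being upward. Called higher under each of the 3 scalings were 652 genes, which is 94.4% of the 691, and called lower under each were 131 genes, which is 11.4% of the 1152. The 652 genes had a median log2 fold change of 1.16 with the authors' size factors and 1.47 after scaling to total reads. For the 131 genes these medians were −0.96 and −0.63. Of the 1152 genes, 32 had a positive log2 fold change after scaling to total reads, although none of those 32 passed the test there, while 0 of the 691 had a negative one.

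**Figure D1:**
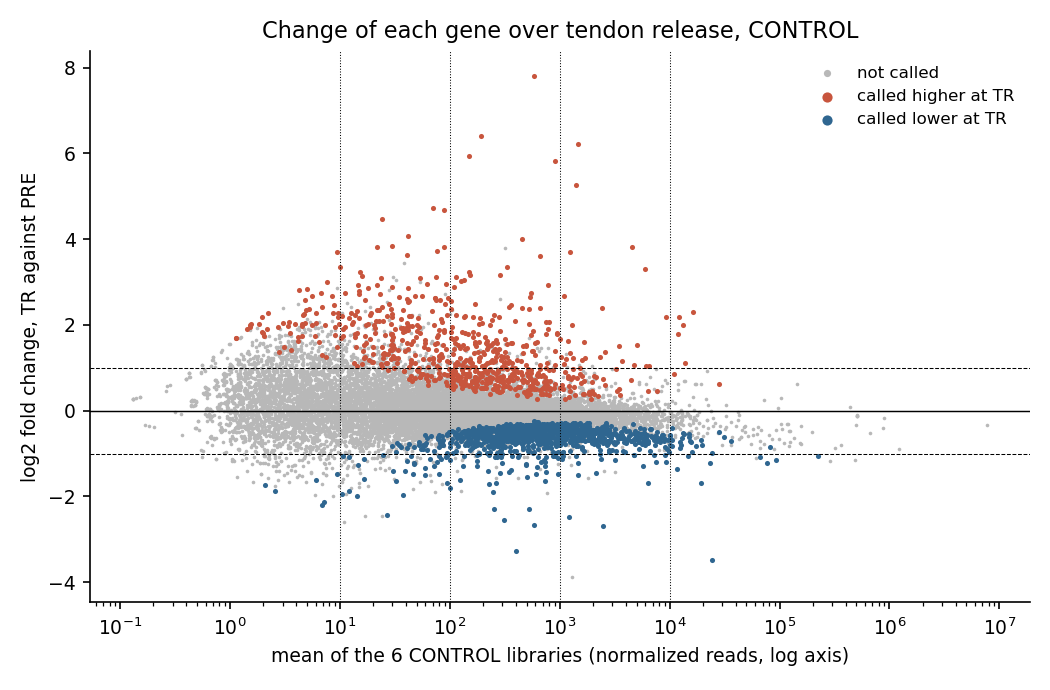
Each point is 1 of the 16417 genes tested, with its mean over the 6 CONTROL libraries in normalized reads on a log axis across and its log2 fold change of TR against PRE upward. Red points were called higher and blue points lower by limma; dotted lines bound the abundance classes and dashed lines mark a 2-fold change. Red points reach a log2 fold change of 7.81, whereas the lowest blue point lies at −3.49, and blue points are densest to the right of 100 normalized reads.

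By size, the genes that rose were spread over all classes and the genes that fell were mostly small changes. Of the 691 genes that rose, 81 changed by less than 1.5-fold, 190 by 1.5 to 2-fold, 266 by 2 to 4-fold, 119 by 4 to 8-fold and 35 by more than 8-fold. Of the 1152 genes that fell, 625 changed by less than 1.5-fold, 415 by 1.5 to 2-fold, 101 by 2 to 4-fold, 9 by 4 to 8-fold and 2 by more than 8-fold. At least 2-fold changes were thus 420 of the genes that rose and 112 of those that fell, counts that came to 407 and 69 with TMM and to 722 and 28 with total reads. Among the genes that fell, the 3 scalings parted mainly over small changes. Of the 625 genes that fell by less than 1.5-fold, 0 were called lower under each scaling, against 74 of the 415 that fell by 1.5 to 2-fold and 47 of the 101 that fell by 2 to 4-fold. Of the 9 that fell by 4 to 8-fold 8 were, as were both that fell further. Among the genes that rose, all 81 under 1.5-fold and all 190 of 1.5 to 2-fold were called higher under each scaling. So were 244 of the 266 that rose 2 to 4-fold and 102 of the 119 that rose 4 to 8-fold. All 35 genes that rose more than 8-fold were called higher under each scaling. Without animal 2901, 2902 or 2903 the genes called with at least a 2-fold rise numbered 164, 101 and 157, and those with at least a 2-fold fall 64, 27 and 75.

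Abundance separated the directions. Genes were placed in classes by their mean over all 6 libraries, in normalized reads, which are not corrected for the length of a gene. Among the 2855 genes with a mean under 10, 58 rose (2.03%) and 6 fell (0.210%). Among the 4454 genes from 10 to 100, 211 rose (4.74%) and 67 fell (1.50%). Among the 6921 genes from 100 to 1000, 346 rose (5.0%) and 677 fell (9.78%). Among the 1984 genes from 1000 to 10000, 69 rose (3.48%) and 369 fell (18.6%). Among the 203 genes with a mean of 10000 or more, 7 rose (3.45%) and 33 fell (16.3%). Genes that rose thus made up 78.7% of the calls among genes with a mean under 100, against 15.9% of the calls among genes with a mean of 1000 or more. Without animal 2902 that last share was 59.3%, and without 2901 or 2903 it was 22.6% and 17.0%.

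The precision also differed between the classes. The median SE of the log2 fold change was 0.60 in the class under 10, 0.34 from 10 to 100, 0.16 from 100 to 1000, 0.14 from 1000 to 10000 and 0.23 in the class of 10000 or more, so that only large changes could pass at low levels. In the lowest class the median log2 fold change was 2.02 for genes that rose and −1.81 for genes that fell, and in the class from 100 to 1000 it was 0.90 and −0.54. The median log2 fold change of all genes tested, called or not, also went down from class to class, with 0.22, 0.05, −0.11, −0.18 and −0.35 in rising order of abundance. After scaling to total reads it was 0.38, 0.36, 0.21, 0.15 and −0.02. The order of the classes was the same under both scalings and under TMM, but after scaling to total reads genes that rose outnumbered those that fell in every class, with 13 and 12 genes in the highest. In classes formed from the PRE mean alone, 130 genes rose and 3 fell in the lowest class, and 1 rose and 48 fell in the highest. The PRE values enter both these classes and the change, which favours rises in low classes and falls in high ones.

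**Figure D2:**
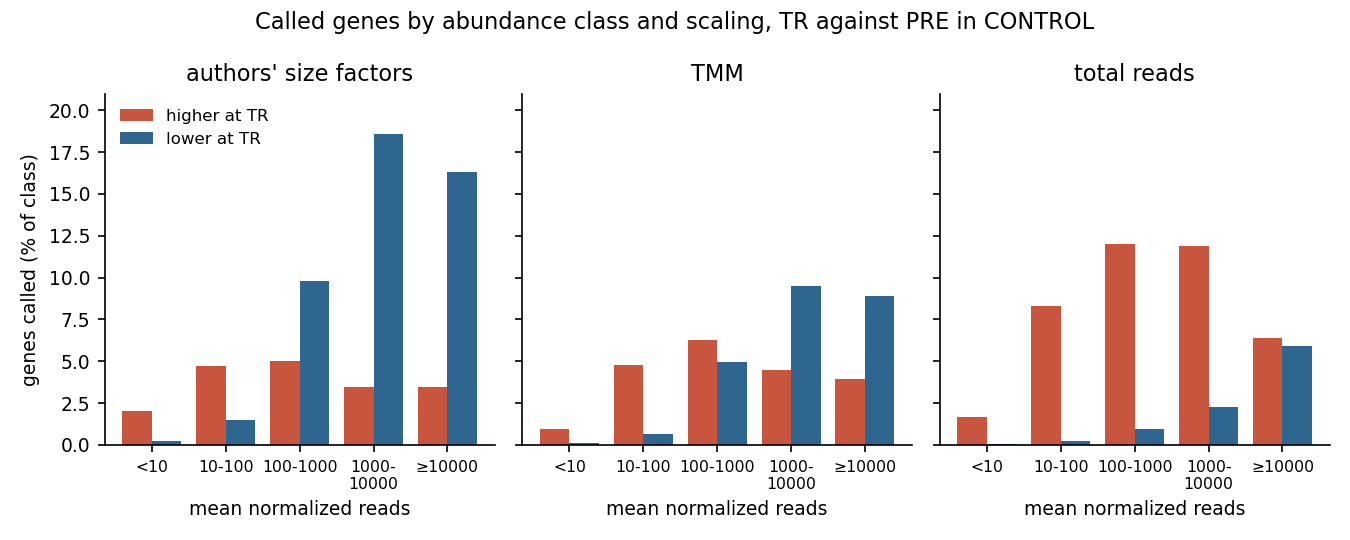
Bars give the percentage of the genes of each abundance class that were called higher (red) or lower (blue) at TR, for the authors' size factors, TMM and scaling to total reads from left to right. Blue bars reach 18.6% in the class from 1000 to 10000 with the authors' size factors and 2.27% there with total reads, whereas red bars outreach blue ones in both lowest classes in all 3 panels.

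Shares of a library's reads need no scaling between libraries, and they showed a smaller part of the RNA in the most abundant genes at TR. The 208 genes with a mean of 10000 or more, tested or not, held 71.9, 71.5 and 70.6% of the reads at TR in 2901, 2902 and 2903, against 73.2, 75.5 and 75.5% at PRE. TR lay below PRE in 3 of 3 animals, with a mean difference of −3.36 percentage points ± 1.86 (SD, n = 3). The difference was smallest in 2901, at −1.27, and largest in 2903, at −4.84 percentage points. Each of the 4 classes below 10000 held a larger share at TR in 3 of 3 animals, and the share of the genes from 100 to 1000 was 9.12% ± 0.32 at TR and 7.72% ± 0.32 at PRE. A two-sided exact permutation test over the 3 pairs gave p = 0.25 for each of the 5 classes, the smallest value that 3 pairs allow.

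The share of the most abundant gene had no common direction in the 3 animals. The same gene led all 6 libraries, with 26.8, 25.7 and 22.5% of the reads at TR in 2901, 2902 and 2903, against 23.2, 24.97 and 26.8% at PRE. Its share was higher at TR in 2901 and 2902 and lower in 2903, with a mean difference of 0.053 percentage points ± 3.98 (SD, n = 3; exact permutation p = 1). The 10 most abundant genes held 44.8% ± 1.88 at TR and 45.3% ± 2.48 at PRE (exact permutation p = 0.75). The 100 most abundant genes held 67.1, 66.2 and 65.5% at TR, against 68.5, 71.2 and 71.2% at PRE, a difference of −4.01 percentage points ± 2.32 (exact permutation p = 0.25). Of these 100 genes 99 were tested, 88 of them with a negative log2 fold change, and 14 were called lower and 1 higher. Their median log2 fold change was −0.47, and after scaling to total reads it was −0.15. The ranking itself moved little, since 89 of the 100 genes with the highest TR means were also among the 100 with the highest PRE means. Among the 10 most abundant genes, 3 had values within 1% of those of another gene in each of the 6 libraries, so the same reads may stand behind more than 1 identifier there. Such pairs held 57 of the 9280 genes with a mean of at least 100, and none of the 1843 called genes was in one.

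In normalized reads, the 691 genes that rose summed to 549209 ± 123816 at TR and 240371 ± 21293 at PRE (SD, n = 3), a gain of 308838. The 1152 genes that fell summed to about 1735980 ± 98956 at TR and 2964090 ± 205672 at PRE, a change of −1228110. This balance turned with the genes counted: as shares of the reads, the 652 genes called higher under each of the 3 scalings gained 1.32 percentage points at TR, and the 131 called lower under each changed by −0.854. The mean sum over all genes at TR differed by −20.1% from that at PRE, and of this difference the most abundant gene made up 24.4%, the 2nd to 100th most abundant genes 61.8% and all others 13.8%. The called genes that fell, which overlap these groups, made up 17.8%. Against its own sum at PRE the most abundant gene differed by −19.7%, near the −20.1% of all genes. The 2nd to 100th most abundant genes differed by −27.4% and all others by −9.38%. As shares of the reads, the genes that rose held 1.56, 1.84 and 2.67% at TR in 2901, 2902 and 2903, against 0.644, 0.688 and 0.769% at PRE. The genes that fell held 6.07, 5.94 and 7.03% at TR, against 9.40, 8.25 and 8.27% at PRE. The lists were chosen on these libraries, so their shares are a description. Animal 2903 had the largest share of the genes that rose in both biopsies, and 2901 the largest loss of share in the genes that fell, −3.33 percentage points against −2.31 in 2902 and −1.23 in 2903.

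**Figure D3:**
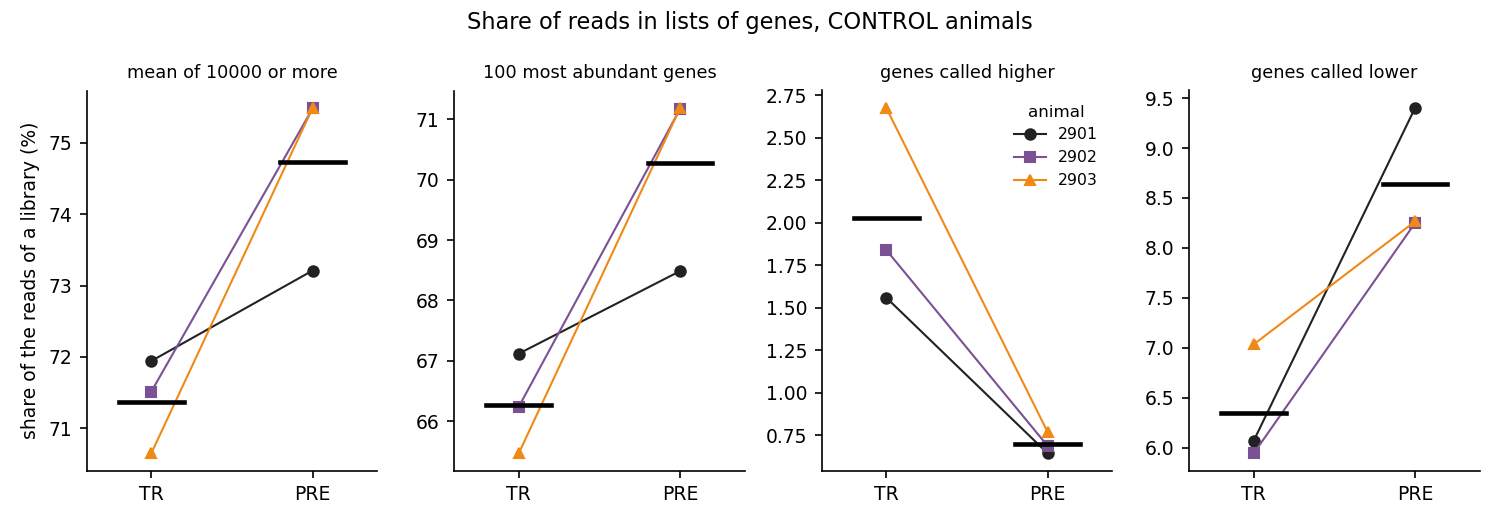
Panels give the share of the reads of a library, in percent, held by genes with a mean of 10000 or more, by the 100 most abundant genes, by the genes called higher and by those called lower, at TR (left) and PRE (right); the axes do not start at 0. Symbols joined by a line are the 2 libraries of an animal and black bars are means of 3 animals. The share of the called genes that rose is above 1.5% in each TR library and under 0.8% in each PRE library.

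More genes were detected at TR. At the depth of the shallowest of the 6 libraries, 27052247 reads, 17589, 17850 and 17881 genes were expected with at least 1 read in the TR libraries of 2901, 2902 and 2903, against 17095, 16933 and 17366 in their PRE libraries. Each TR library lay above each PRE library, with a mean difference within animals of 642 genes ± 239 (SD, n = 3; two-sided exact permutation p = 0.25, the smallest possible). Only 6 genes had no read in any of the 3 PRE libraries and at least 3 reads in each TR library, with 3 to 89 reads there, and 0 genes had the opposite course. Of these 6 genes 3 were tested, and all 3 were called higher.

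The gene with the largest rise in log2 terms was ENSOARG00000002328. It had 422.5, 422.5 and 2609 normalized reads at TR in 2901, 2902 and 2903, against 0, 6.03 and 4.91 at PRE. Read counts behind these values were 510, 537 and 2880 at TR, against 0, 6 and 4 at PRE, so that a transcript at the limit of detection before release was well measured after it in each animal. The log2 fold change was 7.81 (SE 1.37, limma adjusted p = 0.00207). It depends on the pseudocount of 1 because PRE values lie close to it, and ran from 6.78 to 8.76 over the alternatives, all past the threshold where the gene was tested. The N6W animals, also without drug at that time, had 22.03 ± 35.9 normalized reads at TR and 4.65 ± 7.28 at PRE (SD, n = 3), and the N22W animals 355 ± 533 at TR and 5.45 ± 4.75 at PRE. The change in CONTROL exceeded that in N6W by 6.57 (SE 1.94) and that in N22W by 3.15 (SE 1.94) on the log2 scale. Neither difference passed after adjustment (limma adjusted p = 0.37 and 0.853). The gene was chosen for its change in CONTROL, a choice that favours a larger change there than in the other arms.

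ENSOARG00000001508 gained the most normalized reads of all called genes that moved alike in the 3 animals. It had 13400, 12540 and 58340 at TR in 2901, 2902 and 2903, against 3132, 3989 and 6682 at PRE. Every TR value was above every PRE value, and 2903 stood out at TR with more than 4 times the value of each other animal. The log2 fold change was 2.29 (SE 0.48, limma adjusted p = 0.00568), with 2.10, 1.65 and 3.13 in the single animals. In N6W the same gene had 4071 ± 2811 at TR and 4018 ± 1109 at PRE, a log2 fold change of −0.15 that did not pass (adjusted p = 0.881). In N22W it had 21908 ± 17013 at TR and 4208 ± 956 at PRE, a log2 fold change of 2.10 (adjusted p = 0.00535). The difference between CONTROL and N6W was 2.45 (SE 0.68, adjusted p = 0.367), which the limma test over all genes did not call. This gene too was chosen for its change in CONTROL.

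ENSOARG00000003501 had the largest fall in log2 terms. It had 2262, 3802 and 5092 normalized reads at TR in 2901, 2902 and 2903, against 18370, 55080 and 61740 at PRE. Animal 2901 was lowest at both times, and every TR value was far below every PRE value. The log2 fold change was −3.49 (SE 0.53, limma adjusted p = 0.00105), and it passed under every alternative, from −3.73 to −3.17. In N6W the gene had 5100 ± 3347 at TR and 22020 ± 8171 at PRE, a log2 fold change of −2.40 (limma adjusted p = 0.00955), and in N22W 4236 ± 3579 at TR and 17640 ± 3386 at PRE, one of −2.36 (adjusted p = 0.00473). It thus passed in each arm. At the end of the experiment the same CONTROL sheep had 4245 ± 2588 in the operated muscle and 6364 ± 7186 in that of the other side, a log2 difference of −0.17 that did not pass (SE 0.53, adjusted p = 0.844). Levels at END and END-CC were scaled apart from those at TR and PRE and are not compared with them.

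ENSOARG00000011889, from the class with a mean of 10000 or more, lost the most normalized reads of all called genes that moved alike in the 3 animals. It had 126600, 132200 and 178500 at TR in 2901, 2902 and 2903, against 328800, 310600 and 259500 at PRE. The groups did not overlap, and the animal that was lowest at PRE, 2903, was highest at TR. The log2 fold change was −1.05 (SE 0.32, limma adjusted p = 0.0356), with −1.38 and −1.23 in 2901 and 2902 and −0.54 in 2903. This call was weak. It did not pass without any one of the animals (adjusted p = 0.227 without 2901, 0.255 without 2902 and 0.0697 without 2903), nor without the animal term (0.0607), with TMM (−0.98, 0.059), without a filter on low values (0.0574), or with the fit reduced to the 12 libraries of the set (0.108) or to the 6 compared (0.0811). After scaling to total reads it was −0.72 and passed (0.0387). The gene also passed with edgeR (adjusted p = 0.0189), with DESeq2 (0.00132) and in limma with a prior that does not depend on the mean (0.0158). Limma called it as well with a median of at least 10 (0.0144) and with a median of at least 0.5 over the 6 libraries (0.0355). With pseudocounts of 0.5 and 4 the limma adjusted p was 0.0369 and 0.0322. In N6W the gene had 124590 ± 34131 at TR and 194967 ± 9777 at PRE, a log2 fold change of −0.69 that did not pass (limma adjusted p = 0.187), and in N22W 152133 ± 34653 at TR and 241800 ± 32066 at PRE, one of −0.68 that did not pass either (adjusted p = 0.145).

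**Figure D4:**
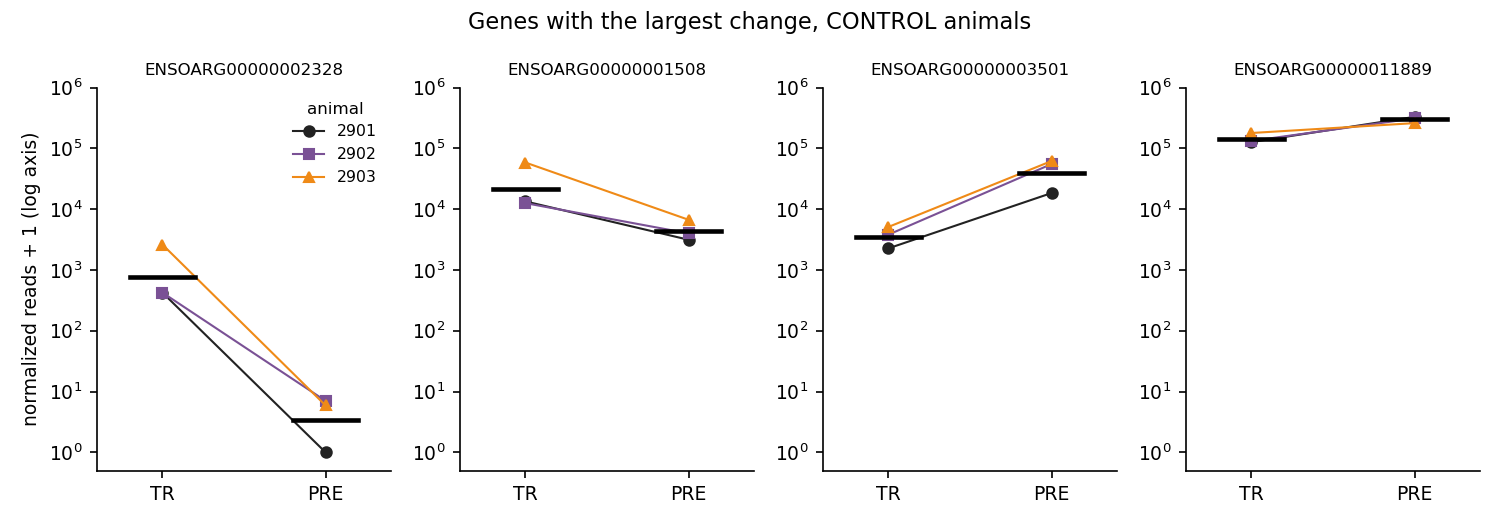
Normalized reads plus 1, on a shared log axis, of the 4 genes at TR (left) and PRE (right). Symbols joined by a line are the 2 libraries of an animal and black bars are geometric means of 3 animals. All 3 lines of ENSOARG00000002328 and ENSOARG00000001508 lie higher at TR, and all 3 lines of ENSOARG00000003501 and ENSOARG00000011889 lie lower at TR.

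The 20 genes with the largest rise, among called genes with a mean of at least 10 and the same direction in all animals, had log2 fold changes from 3.35 to 7.81. The median of their means was 339 normalized reads at TR and 5.76 at PRE. Their values ran from 7.87 to 16030 at TR and from 0 to 767 at PRE. The 20 were thus mainly genes with few reads before release, which a ranking by log2 fold change favours. All 20 were called higher under each of the 3 scalings, and none had overlapping TR and PRE values. Over all 691 genes that rose these shares were 94.4 and 93.8%, and the 20 were chosen on these same libraries. Their median log2 change was 4.14 in 2901, 3.45 in 2902 and 5.57 in 2903. The 20 genes with the largest fall had log2 fold changes from −3.49 to −1.65, with a median of their means of 104 at TR and 472 at PRE. Of these 20, 16 were called lower under each scaling. Their median change was −1.76 in 2901, −1.93 in 2902 and −2.17 in 2903, so that 2903 had the largest change in both lists. The 20 called genes that lost the most normalized reads had smaller changes, from −3.49 to −0.50 with a median of −0.97, and 10 of them were called lower under each scaling. They held 1.76, 1.86 and 2.598% of the reads at TR, against 3.59, 3.15 and 3.30% at PRE.

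The sheep moved alike in the called genes, as the test requires, and less so in the rest. Among the 691 genes that rose, 688 had a positive change in each animal, and among the 1152 that fell, 1147 had a negative one in each. Of all genes tested 50.7% moved in 1 direction in the 3 animals. TR and PRE values did not overlap in 648 of the genes that rose (93.8%) and 1033 of those that fell (89.7%). Over all genes tested they did not overlap in 28.9%, with TR higher in 11.8% and lower in 17.0%. The median change of the genes that rose was 1.11 in 2901, 1.11 in 2902 and 1.28 in 2903, and that of the genes that fell −0.57, −0.65 and −0.47. Across genes, which are not independent replicates, the changes of 2 animals had a Pearson correlation of 0.58 to 0.72 for the 9108 genes with a mean of at least 100 and of 0.26 to 0.33 for the 7309 genes below that. The pair 2901 and 2903 was lowest and the pair 2901 and 2902 highest in both. The spread between animals was of like size at both times, with a median SD of log2 values of 0.24 at TR and 0.25 at PRE. For the genes that rose it was 0.34 and 0.30, and for those that fell 0.15 and 0.17.

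An animal that takes no part in the choice of genes, beyond the filter on low values, shows how large the changes are without that choice. Genes called from the other animals were followed in the TR and PRE libraries of the animal left out. Of the 193 genes called higher without 2901, 181 had a positive change in 2901 (93.8%), with a median log2 change of 1.14 there and 1.74 in the animals that chose them. Of the 115 called higher without 2902, all 115 had one in 2902, with medians of 1.34 and 1.97. Of the 213 called higher without 2903, 200 had one in 2903 (93.9%), with medians of 1.19 and 1.56. Over all genes tested, 43.9 to 46.7% had a positive change in these animals. Of the genes called lower without an animal, 211 of 227, 58 of 60 and 433 of 457 had a negative change in 2901, 2902 and 2903, against 52.7 to 55.4% of all genes. Their medians in the animal left out were −0.49, −0.79 and −0.36, against −0.75, −0.94 and −0.73 in the animals that chose them. The change in the animal left out was nearer to 0 in each of the 6 lists.

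**Figure D5:**
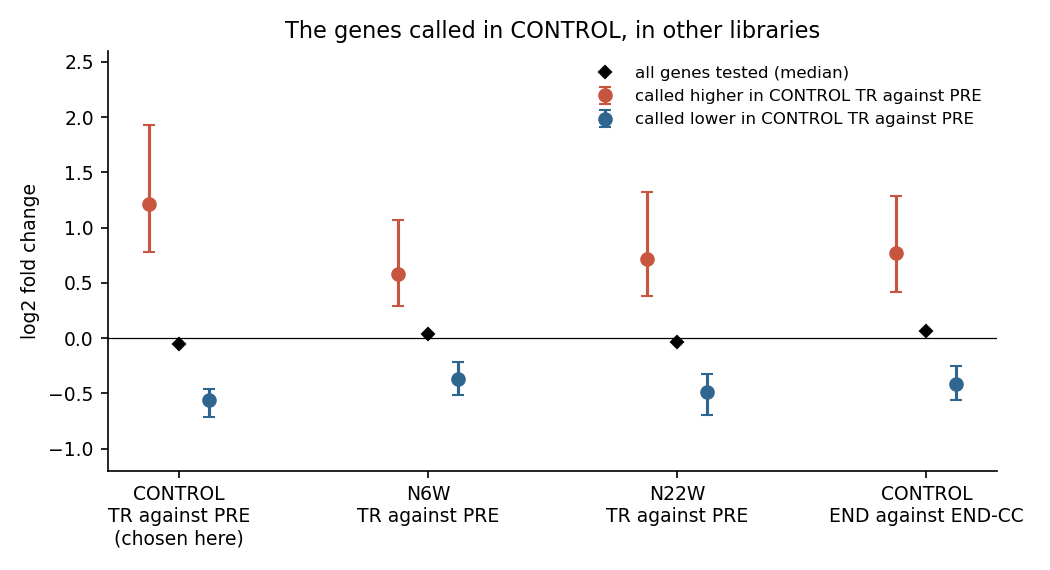
Points are medians and bars quartiles of the log2 fold change of the 691 genes called higher (red) and the 1152 called lower (blue) in CONTROL at TR against PRE, in that comparison, which chose them, and in 3 others; diamonds are medians of all 16417 genes tested. In each of the 3 other comparisons the red median is between 0.58 and 0.77 and the blue one between −0.49 and −0.37.

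No gene passed the limma test for a difference between the release response of CONTROL and that of another arm. The genes called in CONTROL had a median log2 fold change of 0.58 (genes that rose) and −0.37 (genes that fell) in N6W, and of 0.71 and −0.49 in N22W. Limma called 193 of the 691 higher in N6W (27.9%) and 281 of the 1152 lower (24.4%), where it called 6.98% of all genes, 3.76% higher and 3.22% lower. In N22W it called 293 of the 691 higher (42.4%) and 720 of the 1152 lower (62.5%), where it called 16.8% of all genes, 5.26% higher and 11.6% lower. These libraries are others than those of CONTROL, although all comparisons share the spread per gene of 1 fit. The PRE and TR libraries of N22W were scaled as 1 set with those of CONTROL, and those of N6W apart. The N6W PRE libraries held 11879736 to 19974746 reads, against at least 27052247 in each PRE library of CONTROL and N22W. Arm, set and depth cannot be told apart in these shares. The size classes kept their order in N6W, with medians of 1.23, 0.68 and 0.41 for genes that had risen at least 4-fold, 2 to 4-fold and less than 2-fold in CONTROL. In N22W these medians were 1.80, 0.85 and 0.42. The test of the difference itself called 0 of the 16417 genes between CONTROL and N6W and 0 between CONTROL and N22W in limma, with 1224 and 1090 genes at an unadjusted p under 0.05 and the lowest adjusted p at 0.175 and 0.0677. edgeR called 1 and 11 genes and DESeq2 12 and 27. In the comparison with N6W the limma count was 58 without N6W animal 2909 and 1 without CONTROL animal 2901. In the comparison with N22W it was 3 without 2901, 4 without N22W animal 2914 and 1 without 2915.

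In the same 3 sheep, the genes called at TR against PRE also differed between the operated muscle and the other side 6 weeks after repair. These END and END-CC libraries entered the choice of genes only through the filter on low values and the spread per gene. Of the genes that rose, 94.2% were higher at END than at END-CC, against 54.4% of all genes tested, with a median log2 difference of 0.77. Limma called 329 of these 691 genes higher there (47.6%, against 9.53% of all genes) and 0 lower. Of the genes that fell, 92.8% were lower at END, against 45.5% of all genes, with a median of −0.42, and 583 of the 1152 were called lower (50.6%, against 9.87%) and 7 higher. At END 19.4% of all genes were called. Of the 112 genes that had fallen at least 2-fold, 88 had the same sign at END, 25 were called lower and 3 higher. Of the 1040 with smaller falls 981 had the same sign and 558 were called lower. Both sides were taken on the same occasion 22 weeks after release. The operated side had also undergone repair 6 weeks before, so release and repair cannot be told apart in this comparison.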

How the data were processed

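Total RNA of the infraspinatus was sequenced in stranded libraries from which ribosomal RNA had been depleted with human probes, per the labels' protocols. STAR 2.3.0e, the assembly Oar_v3.1 and R 3.0.2 appear in the submitters' processing notes, without their roles; the sources used here name no counting tool, annotation or kind of size factor. Each deposited signal is a whole multiple of 1 step per library: in every library 100% of the values worth at most 100 reads came within 0.1 of a whole read. Reads were recovered by dividing by the step and rounding; values carry 4 significant digits. The test was limma 3.58.1 in R 4.3.3 on log2(value + 1) with a prior that follows the mean, on 16417 genes whose median over the 36 libraries reached 0.5, with a mean per arm and time point and the animal as a block; all 36 libraries inform the spread. P values are two-sided and Benjamini-Hochberg adjusted over the genes tested; fold changes on this scale are understated at low values. Alternatives were other scalings, pseudocounts, filters and fits, edgeR 4.0.16 and DESeq2 1.42.0 on recovered reads, and each animal left out. The limma fit was also run on simulated reads with known changes in genes with a mean of at least 10. These had no difference between animals and given size factors, so the simulation does not bear on the scaling or the pairing. Libraries of the same sheep pair by design; their deviations from group means correlated at 0.31, 0.25 and 0.27 in 2901, 2902 and 2903. Libraries of a group were no copies, with a chi-square per gene of 39.2 to 146 between pairs. Genes named are, among called genes with a mean of at least 10 and 1 direction in all animals, those with the largest log2 fold change and the largest difference of means, in either direction. Comparisons and lists were chosen with earlier results of these data known, and lists of named genes could not be used, since the name table of 35057 rows holds 0 Ensembl identifiers.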

Additional observations from a re-analysis of the deposited data

How the results depend on the processing

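All 4 named genes kept their direction under each alternative in which they were tested, and only ENSOARG00000011889 lost its call under some, as given above. ENSOARG00000002328 was not tested with the filter of a median of at least 10. Without the replicate block limma called 732 genes (323 higher, 409 lower, 44.1% higher; 238 and 55 at least 2-fold). With only the 12 libraries of the set, 641 were lower and 48.8% of calls higher; with only the 6 libraries compared 43.7% were higher. TMM gave 579 lower and 57.1% higher (69 lower at least 2-fold), total reads 1498 and 132 or 91.9% (722 and 28 at least 2-fold), edgeR 1045 and 757 or 58.0%, and DESeq2 1172 higher or 53.8%. The share was 39.9% with a pseudocount of 4, 39.8% without a filter, 33.5% with a median of at least 10, and 40.8% with a prior that does not depend on the mean, an alternative chosen after seeing the data. With 1 animal left out the counts ran from 175 to 670 (115 to 213 higher, 60 to 457 lower, 31.8 to 65.7% higher; 101 to 164 and 27 to 75 at least 2-fold). Among genes with a mean under 100, the share of calls that were higher was 86.0% without the block, 83.9% with 12 libraries, 73.1% with a median of at least 10, 88.6% with TMM, 97.4% with total reads, 85.1% with edgeR, 85.0% with DESeq2, 87.5% in classes by PRE mean and 76.1 to 84.0% with 1 animal left out. For a mean of 1000 or more it was 21.6, 20.9 (block and 12 libraries), 32.0 (TMM), 81.4 (total reads), 31.0 (edgeR), 28.2 (DESeq2), 9.39 (PRE mean) and 17.0 to 59.3% (1 animal left out). Classes by PRE mean share their values with the change, which by itself widens the split between low and high classes. Called genes with the same sign at END made up 93.3%, or 94.9% without the block, 89.9% without a filter, 91.4% with the filter on the 6 libraries, 96.0% with total reads and 88.0 to 94.3% with 1 animal left out. Genes whose change differed from N6W numbered 1 with a pseudocount of 4, 1 with edgeR, 12 with DESeq2 and 0 to 58 with 1 animal left out; from N22W, 1 with total reads, 11 with edgeR, 27 with DESeq2 and 0 to 4. Differences in read shares moved by less than the SD between animals, which leaving out 1 of 3 animals cannot exceed. Their sign was not always kept. For the most abundant gene the difference was −1.75 percentage points without 2901 and 2.19 without 2903. For the 10 most abundant genes it was −2.52 and 1.66. The 100 most abundant genes and both called lists kept their sign. The cause of these differences was not tested. With 3 pairs no exact test can reach 0.05.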
